A study of Mus musculus with 16 samples.

Results

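The 10 genes described here, Slc2a1, Hk2, Pfkl, Aldoa, Tpi1, Gapdh, Pgk1, Eno1, Pkm and Ldha, encode a glucose carrier, enzymes of glycolysis and the enzyme that makes lactate. They were taken by symbol from the 21938 protein-coding genes of the GENCODE M21 annotation on assembled chromosomes, as genes of a known pathway, with earlier results of these data known. These symbols belong to 11 gene records, since Aldoa has 2, of which the record with more transcripts was used. The data are peak lists from chromatin immunoprecipitation and sequencing (ChIP-seq) with an antibody against histone H2B monoubiquitylated on its C-terminal tail (H2Bub1), or with one that binds RPB1, the catalytic core subunit of RNA polymerase II (Pol II). The libraries came from mouse embryonic stem cells (mESCs) and mouse embryonic fibroblasts (MEFs), each of the genotype Atxn7l3+/+ (WT) or Atxn7l3-/- (KO). All cells were of the strain DBA/2 x C57BL/6 and received no treatment beyond culture. The mESCs were grown first on feeders, then without them in serum with LIF and the kinase inhibitors PD0325901 and CH99021, and the MEFs were made from E10.5 embryos. The KO allele is a constitutive null, so that the cells lacked ATXN7L3 through derivation and culture.

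Each of the 8 groups, formed by antibody, genotype and cell type, holds 1 library. No difference below therefore has a replicate check, no p-value is given, and values of WT and KO libraries are set side by side. The read depth behind each list is unknown. A peak's fold is its enrichment over the background that the peak caller estimated, and whether that came from an input library is not given in the sources used here. Folds of WT and KO libraries therefore compare ranks within lists and give no absolute change in occupancy.

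Glycolysis splits glucose into pyruvate and yields ATP without oxygen, and cells that divide fast, embryonic stem cells among them, run much of their glucose through it to lactate. The genes of the pathway are transcribed strongly in most cells and are known targets of the hypoxia-inducible factors and of MYC. Ubiquitin is placed on H2B by the RNF20/RNF40 ligase as Pol II passes, which leaves H2Bub1 over transcribed gene bodies. ATXN7L3 is the adaptor that activates USP22 and related proteases to take this ubiquitin off again.

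Pol II lists held 11963 to 45869 peaks and H2Bub1 lists 19723 to 48952. All 4 mESC markers (Pou5f1, Sox2, Nanog, Tfcp2l1) had a Pol II peak at a coding start in both mESC libraries, 0 in WT MEFs and 1, Tfcp2l1, in KO MEFs. All 4 fibroblast markers (Col1a1, Col1a2, Thy1, Twist2) had a Pol II peak at a coding start in both MEF libraries and 0 in both mESC libraries. The Atxn7l3 gene itself carried Pol II at its start in every library, and its longest stretch outside H2Bub1 peaks was 0 bp (WT) and 2750 bp (KO) in mESCs and 5078 bp (WT) and 2541 bp (KO) in MEFs. The position of the deleted exons was not used here, so these lists do not check the genotype labels.

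The places where transcription of the 10 genes starts were marked by Pol II in WT MEFs. There the summit of the promoter peak lay at position -1 to 202 relative to the RefSeq start taken for each gene. Aldoa and Eno1 have 3 RefSeq starts each, and Pkm and Ldha have 2 each. For them the start nearest the summit was taken, a choice that in part sets this closeness. Promoter sequences, from 250 bases before to 50 bases after that start (RefSeq, GRCm38.p6), were found for all 10 genes. Their median GC content was 65.5%, against 52.67% over 32851 promoters of the same length. On either strand, the letters ACGTG, the core of the element bound by the hypoxia-inducible factors, were found in 6 of the 10 promoters, against 19.6% of all 32851. GCGTG, the other form of that core, was found in 5 (32.4% of all), and 8 promoters held at least 1 of these forms (43.8% of all), the exceptions being Tpi1 and Pkm. The GC box GGGCGG was found in 9, with Gapdh as the exception (35.7% of all), CCAAT in 6 (37.4%) and TATAAA in 1, that of Slc2a1 (13.6%). The E-box CACGTG, which contains ACGTG on both strands, was found in the Ldha promoter alone, at 2 places (7.15% of all). The 32851 promoters were not matched to the 10 for GC content, and its part in these shares was not tested. Such matches are counts of letters, and binding was not measured.

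The promoters of 5 genes are printed, as those on which the Pol II results turn. Pgk1 had no Pol II peak in mESCs, Hk2 had one in WT mESCs alone, Ldha starts 4329 bp inside its gene record and had the highest Pol II fold of the 10 genes in WT MEFs, and Pfkl and Aldoa had the lowest and the highest ratio of KO to WT fold in MEFs. Capitals mark ACGTG or GCGTG, or their reverse complements.
Pgk1, chrX:106186850-106187149, plus strand: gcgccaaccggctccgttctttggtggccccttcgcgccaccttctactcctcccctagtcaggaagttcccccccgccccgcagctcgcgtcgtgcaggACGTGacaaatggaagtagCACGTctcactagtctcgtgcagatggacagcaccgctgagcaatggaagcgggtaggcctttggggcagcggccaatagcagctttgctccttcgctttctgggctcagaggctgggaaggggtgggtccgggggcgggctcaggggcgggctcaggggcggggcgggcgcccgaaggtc
Hk2, chr6:82774405-82774704, minus strand: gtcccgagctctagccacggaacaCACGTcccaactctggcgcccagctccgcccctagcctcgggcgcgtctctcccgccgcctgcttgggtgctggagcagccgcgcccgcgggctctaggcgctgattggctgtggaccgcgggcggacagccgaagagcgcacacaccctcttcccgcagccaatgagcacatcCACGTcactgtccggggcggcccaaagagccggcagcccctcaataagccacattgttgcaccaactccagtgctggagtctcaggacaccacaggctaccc
Ldha, chr7:46845554-46845853, plus strand: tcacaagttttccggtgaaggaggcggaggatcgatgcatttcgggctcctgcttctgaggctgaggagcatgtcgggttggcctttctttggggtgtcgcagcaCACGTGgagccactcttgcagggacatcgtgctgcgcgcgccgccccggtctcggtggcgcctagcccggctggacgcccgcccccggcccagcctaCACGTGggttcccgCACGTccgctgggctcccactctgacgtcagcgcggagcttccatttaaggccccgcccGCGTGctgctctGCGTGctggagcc
Pfkl, chr10:78009758-78010057, minus strand: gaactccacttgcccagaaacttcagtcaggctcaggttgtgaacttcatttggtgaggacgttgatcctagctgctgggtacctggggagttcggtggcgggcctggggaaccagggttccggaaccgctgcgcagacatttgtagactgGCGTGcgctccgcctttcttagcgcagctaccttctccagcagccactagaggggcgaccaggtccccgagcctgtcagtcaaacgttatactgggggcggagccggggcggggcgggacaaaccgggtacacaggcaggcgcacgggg
Aldoa, chr7:126799129-126799428, minus strand: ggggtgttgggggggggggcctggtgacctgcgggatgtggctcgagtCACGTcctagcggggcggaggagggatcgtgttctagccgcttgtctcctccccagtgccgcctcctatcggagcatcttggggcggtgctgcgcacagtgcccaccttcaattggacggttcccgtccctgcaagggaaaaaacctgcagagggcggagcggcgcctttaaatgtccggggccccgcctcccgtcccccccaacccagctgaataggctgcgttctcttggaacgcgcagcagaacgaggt

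Ldha held 5 matches of ACGTG on the 2 strands, of which 4 came from its 2 palindromic CACGTG, and Pgk1 and Hk2 held 2 each. Pfkl had no ACGTG and 1 GCGTG, and Aldoa had 1 ACGTG. The start of the Aldoa sequence lies 1573 bp inside its gene record, and that of Pfkl 276 bp.

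To see how much of each gene carried H2Bub1, the share of bases from transcription start site (TSS) to transcript end inside H2Bub1 peaks was taken in each library. The glycolysis genes were covered over most of their length in mESCs of both genotypes and in KO MEFs, but not in WT MEFs. The median over the 10 genes was 84.9% (WT) and 85.4% (KO) in mESCs and 29.1% (WT) and 79.9% (KO) in MEFs. Over all protein-coding genes the medians were 0.866%, 5.64%, 0% and 4.29%. Among genes with a Pol II peak at a coding start in both genotypes, 6203 in mESCs and 11531 in MEFs, they were 19.2%, 42.4%, 2.03% and 49.4%. At least 50% of the body was covered in mESCs for 9 of the 10 genes in WT (11.3% of all genes) and 9 in KO (21.6%), while in MEFs 0 genes reached this share in WT (4.14%) and 9 did in KO (26.8%). Among genes with Pol II the shares with such coverage were 26.9%, 44.2%, 7.72% and 49.5%, and of the members with Pol II all 8 had it in each mESC library. At least 1 H2Bub1 peak touched the body of all 10 genes in mESCs (53.6% of all genes in WT, 60.8% in KO), and in MEFs of 9 in WT (30.4%) and all 10 in KO (53.0%). The gene below 50% was Pgk1 in both mESC libraries and Pfkl in KO MEFs.

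In MEFs the covered share was higher in KO for 10 of 10 genes, by 51.6 percentage points at the median and by 23.4 to 65.2 points. A higher share in KO was also the rule elsewhere, with 52.6% of all genes and 93.2% of the genes with Pol II, whose median difference was 33.5 points. In mESCs the glycolysis genes went both ways, with 6 of 10 higher in KO, against 53.3% of all genes. Of the 8 with Pol II in both mESC libraries 4 were higher, against 85.5% of such genes, and 4 were lower, against 10.0%. The 4 genes with a lower share in KO mESCs were Tpi1, Gapdh, Eno1 and Pkm. The last 3 were covered over 100% of their body in WT, from where a share can only stay or be lower. Of the 322 genes so covered in WT mESCs, 23.6% had a lower share in KO. The median difference in mESCs was 5.45 points for the 10 genes and 12.3 points for the genes with Pol II. The value for the 10 genes was 0.367 points without the first 1000 bp of the body and 1.51 points over bases in no other annotated gene, with 5 of 10 genes higher in KO in either case, and 2.79 points with equal numbers of peaks in both lists.

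**Figure D1:**
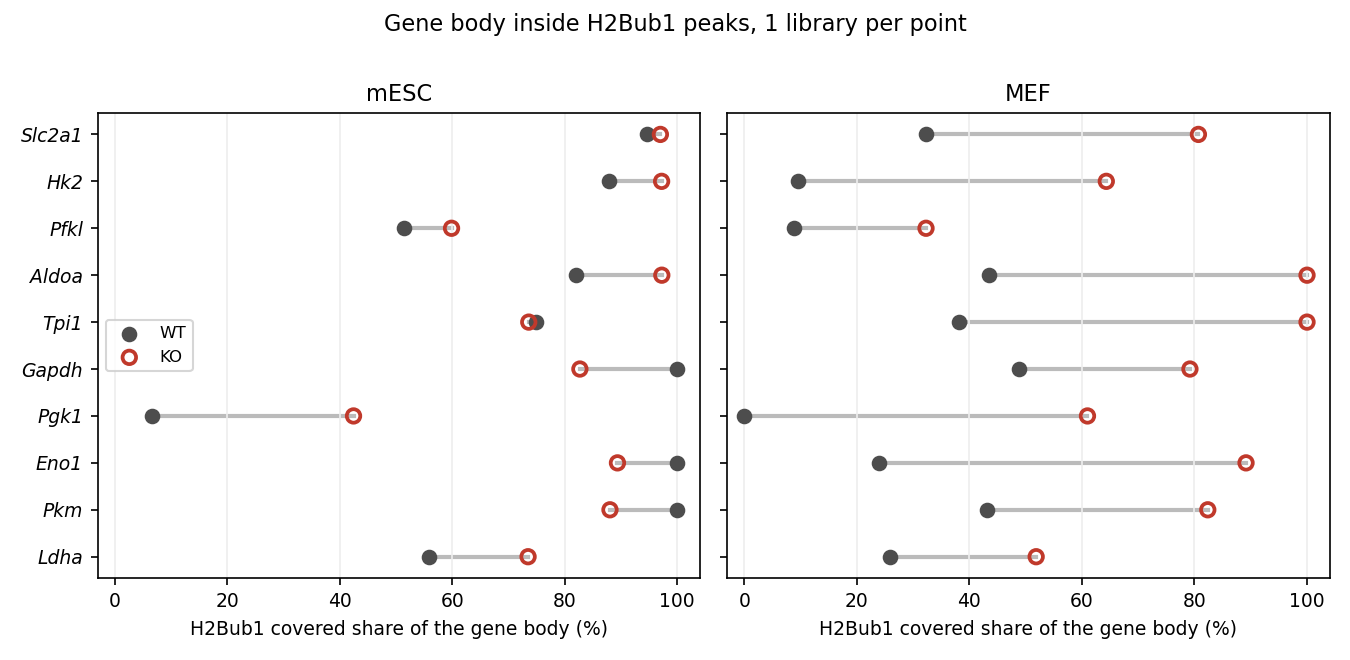
Share of the gene body, from TSS to transcript end, inside H2Bub1 peaks (x axis, percent) for each of the 10 genes in pathway order (y axis), in mESCs (left) and MEFs (right). Filled grey points are the WT library and open red points the KO library, 1 library each. In MEFs all 10 KO points lie to the right of the WT points, while in mESCs those of Tpi1, Gapdh, Eno1 and Pkm lie to the left.

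Slc2a1 (chr4:119108711-119137983, plus strand, mm10) encodes GLUT1, the carrier that lets glucose into most cells. H2Bub1 peaks covered its body over 94.6% (WT) and 97.0% (KO) in mESCs and 32.3% (WT) and 80.7% (KO) in MEFs. The gene was almost filled in both mESC libraries, and the KO domain of 32254 bp there ran without a break from position -3856 to 28397 relative to the TSS, near the end of the gene of 29273 bp. In WT MEFs the coverage consisted of 4 separate peaks, and in KO MEFs a peak from -562 to 23622 bp took their place.

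Hk2 (chr6:82725025-82774454, minus strand) encodes hexokinase 2, which traps glucose in the cell by phosphorylation. Of the Hk2 body, H2Bub1 peaks took up 87.9% (WT) and 97.2% (KO) in mESCs and 9.51% (WT) and 64.3% (KO) in MEFs. Hk2 is the longest of the 10 genes, with 49430 bp, and the 3 WT MEF peaks all lay in its first 9174 bp. The main KO MEF peak reached 30720 bp into the gene, and a further, short one spanned 33808 to 34883 bp.

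Pfkl (chr10:77986947-78010083, minus strand) encodes the liver-type subunit of phosphofructokinase, which commits sugar to the pathway. The covered share of Pfkl was 51.4% (WT) and 59.9% (KO) in mESCs and 8.86% (WT) and 32.3% (KO) in MEFs. Its share was the lowest of the 10 genes in KO MEFs and, after that of Pgk1, the lowest in the other 3 libraries. With peaks of a -log10 q of at least 3 alone, the mESC difference of 8.45 points became -15.9 points.

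Aldoa (chr7:126795234-126800751, minus strand) encodes aldolase A, which cleaves the 6-carbon sugar into a pair of 3-carbon sugars. For Aldoa the covered share was 81.95% (WT) and 97.3% (KO) in mESCs and 43.5% (WT) and 100% (KO) in MEFs. The H2Bub1 domain of WT mESCs began 996 bp inside the gene and that of KO mESCs at position -331. Without the first 1000 bp of the body the mESC difference of 15.3 points became -3.34, and over the bases in no other annotated gene -6.20. The other record of this symbol (chr7:126800790-126809108, 2 transcripts), just upstream, was covered over 9.09%, 45.8%, 0% and 66.1% in the same order of libraries.

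Tpi1 (chr6:124810586-124814296, minus strand) encodes triosephosphate isomerase, which interconverts the 3-carbon sugars. The Tpi1 share inside H2Bub1 peaks was 74.9% (WT) and 73.6% (KO) in mESCs and 38.2% (WT) and 100% (KO) in MEFs. The mESC libraries were close to each other, and the MEF libraries 61.8 points apart. In WT mESCs the peak over Tpi1 had a -log10 q of 2.42, and with a minimum of 3 the mESC difference of -1.24 points became 73.6 points.

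Gapdh (chr6:125161715-125166467, minus strand) encodes glyceraldehyde-3-phosphate dehydrogenase, which forms NADH. The share of Gapdh inside H2Bub1 peaks was 100% (WT) and 82.7% (KO) in mESCs and 48.9% (WT) and 79.2% (KO) in MEFs. In WT mESCs a peak ran from position -1053 to 4366 bp past the transcript end. In KO mESCs it ended at 3930 bp from the TSS and in KO MEFs at 3763 bp, in a gene of 4753 bp.

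Pgk1 (chrX:106187100-106203699, plus strand) encodes phosphoglycerate kinase, which makes the first ATP of the pathway, and is the only X-linked gene of the 10. Pgk1 was covered over 6.60% (WT) and 42.5% (KO) in mESCs and 0% (WT) and 61.0% (KO) in MEFs. Both WT shares were the lowest of the 10 genes. The KO domains covered positions -12 to 7050 (mESCs) and 54 to 10176 (MEFs), in a gene of 16600 bp.

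Eno1 (chr4:150236721-150248879, plus strand) encodes enolase 1, which forms phosphoenolpyruvate. On Eno1, H2Bub1 peaks covered 100% (WT) and 89.4% (KO) in mESCs and 24.0% (WT) and 89.2% (KO) in MEFs. The MEF difference of 65.2 points was the largest of the 10 genes. The KO MEF peak ran from position -402 to 10840, in a gene of 12159 bp.

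Pkm (chr9:59656368-59679375, plus strand) encodes the muscle-type pyruvate kinase, which makes pyruvate. The Pkm body was covered over 100% (WT) and 88.1% (KO) in mESCs and 43.2% (WT) and 82.4% (KO) in MEFs. The WT mESC domain of 25634 bp reached 1329 bp past the transcript end, while the main KO mESC domain ended at 19723 bp from the TSS, in a gene of 23008 bp. In KO MEFs the main peak had a fold of 6.03, the highest of the H2Bub1 peaks at the 10 genes.

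Ldha (chr7:46841475-46855627, plus strand) encodes the A subunit of lactate dehydrogenase, which turns pyruvate into lactate. Across Ldha, H2Bub1 peaks spanned 55.9% (WT) and 73.5% (KO) in mESCs and 25.9% (WT) and 51.9% (KO) in MEFs. H2Bub1 began 4265 bp inside this gene record in WT MEFs and 3609 bp inside it in KO MEFs, and the RefSeq start lies 4329 bp inside it. With equal numbers of peaks in the WT and KO lists the mESC difference of 17.6 points became 3.14, and with peaks under 1000 bp apart joined 4.23.

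The enrichment of the covered bases was set beside that of other genes of the same library. The median over the genes of the length-weighted H2Bub1 fold was 3.41 (WT) and 3.86 (KO) in mESCs and 2.98 (WT) and 4.30 (KO) in MEFs, against 3.00, 3.26, 3.12 and 3.49 for genes with Pol II. The WT MEF median rests on 9 genes, since Pgk1 had no peak there. In WT MEFs, Pfkl, Gapdh and Pkm had a peak with a -log10 q of at least 3 in the gene body, which makes 3 of 10 genes, against 5.52% of all genes and 10.3% of the genes with Pol II. Among the genes with any H2Bub1 peak there, such a peak was held by 3 of 9 glycolysis genes and by 18.2% of 6666 in all. Under that minimum the WT MEF median was 0% and the median MEF difference 62.7 points.

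Where along the gene the genotypes differed was read from the TSS, the transcript end and 10 equal bins between them. The TSS of the gene record lay inside an H2Bub1 peak for 5 of the 10 genes (WT, 17.8% of all genes) and for 10 (KO, 38.6%) in mESCs, against 0 (WT, 3.48%) and 7 (KO, 34.8%) in MEFs. Among genes with Pol II in both genotypes these shares were 45.4%, 79.5%, 6.42% and 64.6%. The 5 genes with the TSS covered in KO mESCs alone were Slc2a1, Hk2, Aldoa, Pgk1 and Ldha, and the 3 without it in KO MEFs were Pfkl, Pgk1 and Ldha. In WT mESCs H2Bub1 peaks of Slc2a1 and Hk2 began only 30 and 72 bp after that TSS. The RefSeq starts taken for Aldoa (1573 bp inside the record) and Ldha (4329 bp) lay inside WT mESC peaks, which began at 996 and 3777 bp. The last base of the record went the other way in mESCs, being inside a peak in 6 genes in WT (9.75% of all genes) and 3 in KO (13.7%). In MEFs it was inside a peak for 0 genes in WT (1.8%) and for 2 in KO (11.8%), Aldoa and Tpi1. Among the genes with Pol II those shares were 19.8%, 25.1%, 3.06% and 20.4%, and of the 8 members with Pol II in mESCs 5 had it in WT and 2 in KO.

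In mESCs the mean covered share over the 10 genes was 69.8% in WT and 98.9% in KO in the first of the 10 bins. In the last bin it was 63.8% in WT and 45.9% in KO. These means rest on a few genes. In the first bin Pfkl, Tpi1, Gapdh, Eno1 and Pkm were at 100% in both genotypes, and Aldoa, Pgk1 and Ldha were at 0% in WT. The first bins of Aldoa and Ldha lie wholly before the RefSeq starts taken here. Those starts are 1573 and 4329 bp inside records of 5518 and 14153 bp. In the last bin the share was lower in KO for 4 of the 10 genes, Slc2a1, Aldoa, Gapdh (100% in WT and 0% in KO) and Pkm (100% and 23.3%), and higher in KO for Hk2, Pfkl (26.8% and 36.7%) and Ldha (32.7% and 56.0%). The mean over the 6203 genes with Pol II was higher in KO at both ends, with 49.7% and 77.0% in the first bin and 23.8% and 29.7% in the last. In MEFs the means over the glycolysis genes were 24.7% and 87.1% in the first bin, 59.7% and 94.9% in the fourth, and 0% and 20% in the last. In WT MEFs the mean was thus highest inside the gene. The mean over the 11531 genes with Pol II was also highest inside the gene in WT MEFs, with 19.8% in the first bin, 21.8% in the second and 3.93% in the last.

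**Figure D2:**
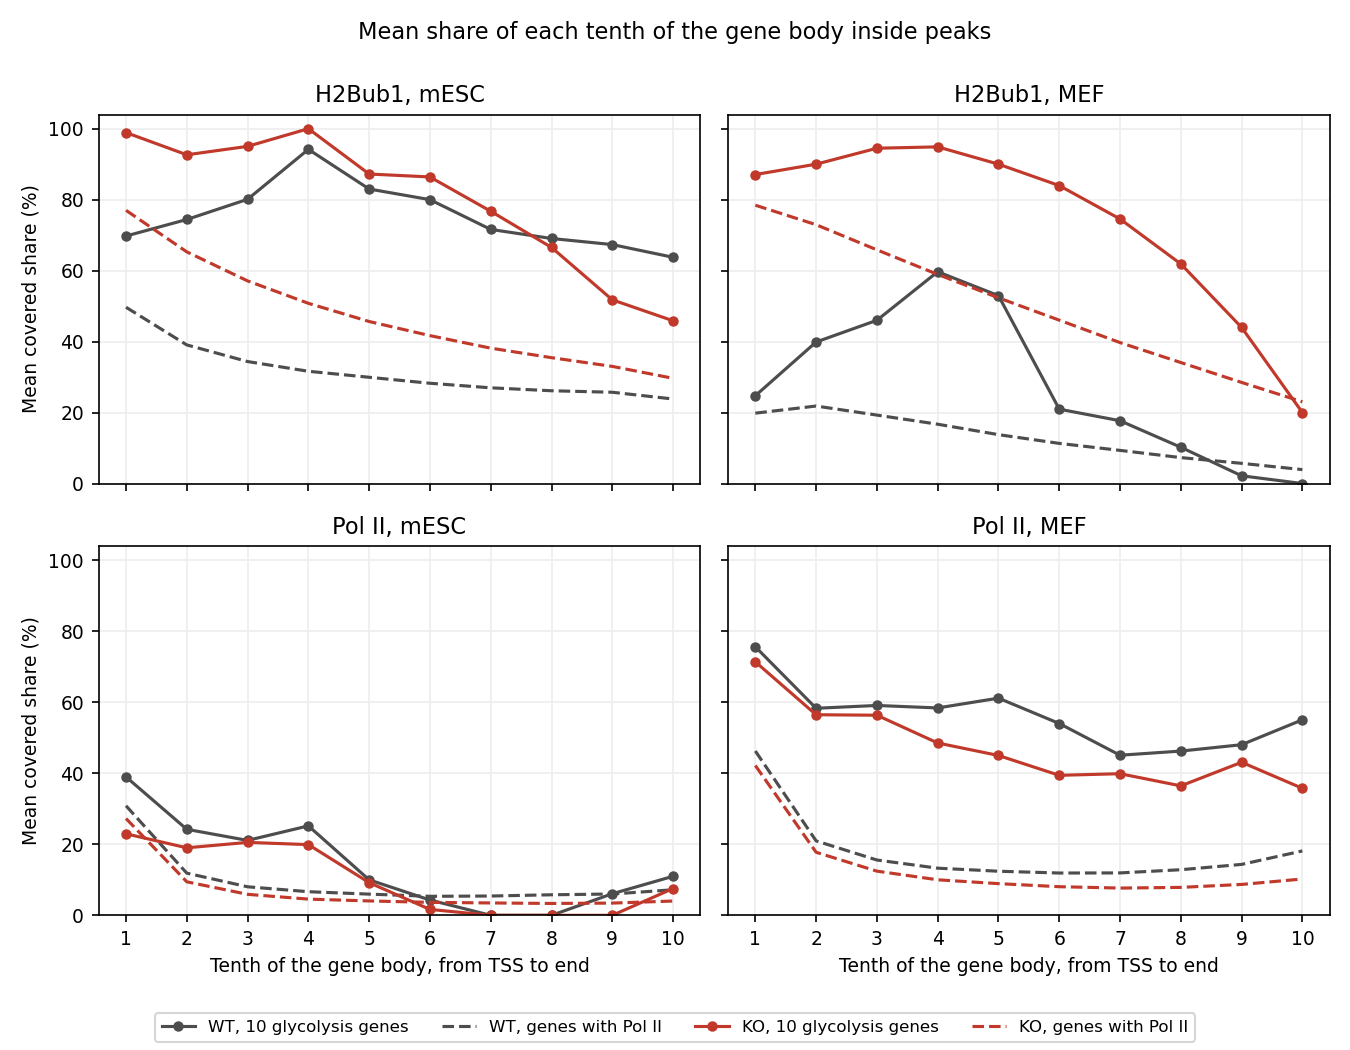
Mean share of each of 10 equal bins of the gene body inside H2Bub1 peaks (top) and Pol II peaks (bottom), from TSS (1) to transcript end (10), in mESCs (left) and MEFs (right). Solid lines with points are the 10 glycolysis genes and dashed lines the genes with Pol II at a coding start in both genotypes, WT in grey and KO in red. In mESCs the solid H2Bub1 lines cross, with 69.8% (WT) and 98.9% (KO) in the first bin and 63.8% (WT) and 45.9% (KO) in the last. The first bins of Aldoa and Ldha lie before the RefSeq starts taken for these genes.

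Pol II was next examined at the starts of the genes. A Pol II peak within 1000 bp of the TSS of the gene record was found in mESCs for 8 of the 10 genes (WT, 33.9% of all genes) and 7 (KO, 31.3%), and in MEFs for 9 genes of either genotype (54.1% of all genes in WT, 51.1% in KO). The gene without it in MEFs was Ldha, whose RefSeq start lies well inside its record. With the starts of all protein-coding transcripts, a setting chosen after the values were seen, the counts were 9 (36.4% of all genes), 8 (33.6%), 10 (57.0%) and 10 (54.1%). The folds below are those of the highest peak at such a start.

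The median Pol II fold of the glycolysis genes lay above that of all promoters with a peak in each library, with exceptions among single genes. The median fold was 5.20 over 9 genes (WT) and 5.99 over 8 genes (KO) in mESCs and 25.7 over 10 genes (WT) and 26.7 over 10 genes (KO) in MEFs. Over all genes with such a peak the medians were 4.39, 4.54, 13.3 and 11.6. In KO MEFs Pfkl was at percentile 27.6 of the promoters with a peak, Pgk1 at 32.1 and Hk2 also below 50, and in WT MEFs Pgk1 was at 44.9. In mESCs the genes below percentile 50 were Hk2 at 30.7 (WT), Eno1 at 47.0 (WT) and 35.8 (KO), and Ldha at 49.0 (WT). Folds of mESC and MEF libraries are relative to different backgrounds, and only their order within a library is read here.

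Slc2a1 had a Pol II fold of 5.20 (WT) and 6.04 (KO) in mESCs and 26.5 (WT) and 29.3 (KO) in MEFs. Its KO library was slightly above the WT library in both cell types, by 0.21 and 0.14 on the log2 scale. Hk2 had a fold of 3.73 (WT) and no peak (KO) in mESCs and 17.4 (WT) and 9.96 (KO) in MEFs. The WT mESC peak of Hk2 was weak, with a -log10 q of 5.01, and 22.3% of the promoters with Pol II in WT mESCs had none in KO mESCs.

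Pfkl had a fold of 4.87 (WT) and 5.05 (KO) in mESCs and 17.5 (WT) and 7.94 (KO) in MEFs. Its log2 ratio of -1.14 in MEFs was the lowest of the 10 genes and lay at percentile 4.93 of all 11531 ratios. Aldoa had a fold of 6.14 (WT) and 5.95 (KO) in mESCs and 25.2 (WT) and 35.1 (KO) in MEFs. Its log2 ratio of 0.48 in MEFs was the highest of the 10 and lay at percentile 91.9.

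Tpi1 had a fold of 7.41 (WT) and 7.06 (KO) in mESCs and 26.2 (WT) and 25.2 (KO) in MEFs. Gapdh had a fold of 11.6 (WT) and 9.45 (KO) in mESCs and 25.7 (WT) and 29.2 (KO) in MEFs. Gapdh thus had the highest fold of the 10 genes in both mESC libraries, while Tpi1 hardly differed between genotypes. Pgk1 had no Pol II peak at all between TSS and transcript end in either mESC library, and its MEF folds were 12.4 (WT) and 8.70 (KO).

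Eno1 had a fold of 4.28 (WT) and 4.12 (KO) in mESCs and 25.8 (WT) and 23.2 (KO) in MEFs. Pkm had a fold of 7.00 (WT) and 7.77 (KO) in mESCs and 29.6 (WT) and 28.8 (KO) in MEFs. These genes were close between genotypes in both cell types. Ldha had a fold of 4.32 (WT) and 4.94 (KO) in mESCs and 46.7 (WT) and 28.2 (KO) in MEFs. The WT MEF value of Ldha lay at percentile 99.9 of all promoters with Pol II in that library and the KO value at percentile 97.2, with a log2 ratio of -0.73.

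Over the 10 genes the fold was lower in KO MEFs for 7, against 67.7% of all genes with Pol II in both, and the median log2 ratio was -0.11 against -0.23 over all 11531. In mESCs it was lower in KO for 4 of 8, against 47.6%, with a median log2 ratio of 0.00 against 0.03 over all 6203. The genes as a list were thus near the background in both cell types, and single ratios in MEFs spread from -1.14 to 0.48.

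**Figure D3:**
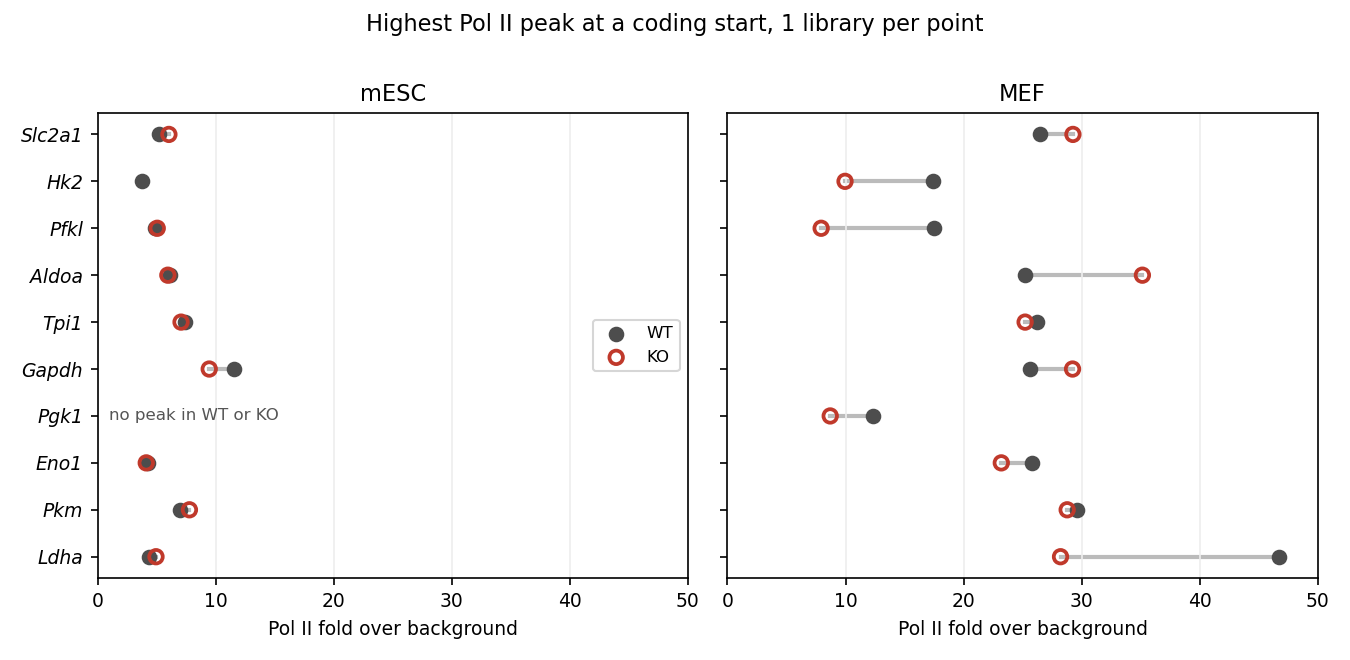
Fold over background of the highest Pol II peak within 1000 bp of a coding start (x axis) for each of the 10 genes (y axis), in mESCs (left) and MEFs (right), 1 library per point, WT filled grey and KO open red. WT and KO points lie close together for most genes, with the widest gaps at Ldha (46.7 and 28.2), Aldoa, Pfkl and Hk2 in MEFs, and Pgk1 has no peak in mESCs.

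Along the gene bodies, Pol II peaks covered a median of 6.44% (WT) and 4.34% (KO) of the glycolysis genes in mESCs and 66.9% (WT) and 47.5% (KO) in MEFs. Genes with Pol II at a start in both genotypes had medians of 2.42%, 1.83%, 6.17% and 4.33%. Without the first 1000 bp of the body the mESC medians of the 10 genes were 0.212% (WT) and 0% (KO), and 5 of the 10 genes had a lower share in KO. At least 1 Pol II peak touched the body of 9 of the 10 genes (WT, 41.3% of all genes) and 8 (KO, 36.3%) in mESCs, and of all 10 in MEFs (60.4% of all genes in WT, 56.4% in KO). In mESCs at least 50% of the body lay in Pol II peaks for 1 of 8 genes in WT, Gapdh (4.68% of genes with Pol II), and for 0 in KO (2.98%). At least 50% of the body lay in Pol II peaks in 6 of the 10 genes in WT MEFs, against 11.7% of the genes with Pol II. These were Aldoa, Tpi1, Gapdh, Eno1, Pkm and Ldha. In KO MEFs they were 5, without Ldha, against 7.53%. The glycolysis genes from Aldoa downward in the pathway, other than Pgk1, were thus those most filled with Pol II in MEFs. They were also shorter, from 3711 bp (Tpi1) to 23008 bp (Pkm), than Pfkl (23137 bp), Slc2a1 (29273 bp) and Hk2 (49430 bp). Pgk1, with 16600 bp, was less filled though shorter than Pkm. The part of gene length in these shares was not tested.

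The share was lower in KO for 9 of the 10 genes in MEFs, against 73.0% of the genes with Pol II, and for 7 of the 8 in mESCs, against 68.5%. Eno1 had 6.23% (WT) and 5.14% (KO) in mESCs and 88.9% (WT) and 64.5% (KO) in MEFs, the widest MEF difference of the 10. Ldha had 6.66%, 5.04%, 51.3% and 30.5% in the same order, Pkm 8.15%, 3.63%, 84.4% and 70.7%, and Slc2a1 2.60%, 1.75%, 21.6% and 9.17%. Hk2 was the exception in MEFs, with 4.51% in WT and 11.8% in KO, where 4 peaks between 7430 and 11041 bp from the TSS were called in KO alone. Gapdh had the widest difference in mESCs, with 68.5% in WT and 39.6% in KO, and was close to filled in MEFs, with 100% and 97.5%. Aldoa differed by 1.61 points in mESCs and -2.52 points in MEFs, and the latter became 18.9 points with equal numbers of peaks in both lists. Over bases in no other annotated gene its differences were 0.0 points in mESCs and -14.6 points in MEFs. The direction of the Aldoa difference in MEFs thus depended on the lists used, and the size of its differences on the bases. With equal numbers of peaks the MEF difference of Slc2a1 went from -12.4 to -4.90 points, the WT MEF median from 66.9% to 54.0% beside 47.5% in KO, and the count of genes lower in KO MEFs from 9 to 8.

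Past the transcript end, Pol II peaks of the glycolysis genes covered fewer bases in KO lists. The share of the 5000 bp after the end inside Pol II peaks, a measure chosen after the values were seen, had a median of 29.3% (WT) and 7.75% (KO) in mESCs and 84.0% (WT) and 44.2% (KO) in MEFs. For genes with Pol II in both genotypes the medians were 0%, 0%, 17.8% and 0%. The share was lower in KO for 10 of 10 genes in MEFs, against 57.9% of the genes with Pol II, and for 8 of 8 in mESCs, against 37.5%. A gene at 0% in WT cannot be lower in KO, and among the genes with Pol II past the end in WT the share was lower in KO for 89.8% of 7439 in MEFs and 92.6% of 2512 in mESCs. The counts for the glycolysis genes, all of which had Pol II there in WT where compared, are near that background. KO Pol II lists were also shorter, with 17074 WT and 11963 KO peaks in mESCs and 45869 and 32232 in MEFs.

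For 6 of the 10 genes another protein-coding gene reaches into these 5000 bp, for example Taf9b after Pgk1 and Ppp4c after Aldoa, and Pol II there cannot be assigned to either gene. The 4 genes without such a neighbour were Slc2a1, Hk2, Eno1 and Ldha, and all 4 had lower shares in KO in both cell types. Slc2a1 had 26.6% (WT) and 0% (KO) in mESCs and 76.8% (WT) and 14.5% (KO) in MEFs. Hk2 had 11.1%, 8.26%, 14.4% and 5.52% in the same order. The gap was wide for Slc2a1 and only a few points for Hk2.

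Eno1 had 48.3% (WT) and 6.56% (KO) in mESCs and 100% (WT) and 81.5% (KO) in MEFs. Ldha had 22.2% (WT) and 0% (KO) in mESCs and 48.9% (WT) and 40.0% (KO) in MEFs. Both genes thus had their wider gap in mESCs. Of the genes with neighbours, Pgk1 had the widest MEF gap of all, from 83.0% (WT) to 14.0% (KO), and Tpi1 had 94.2% and 84.7%.

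**Figure D4:**
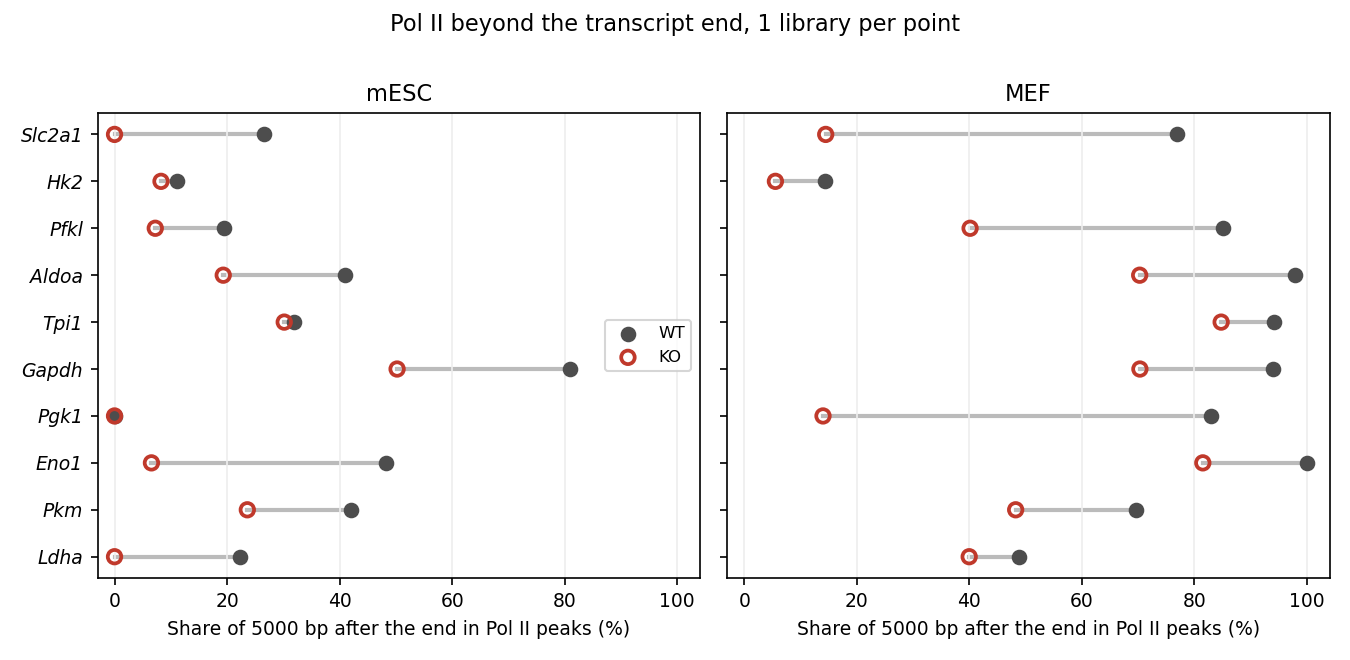
Share of the 5000 bp past the transcript end inside Pol II peaks (x axis, percent) for each of the 10 genes (y axis), in mESCs (left) and MEFs (right), 1 library per point, WT filled grey and KO open red. All 10 KO points lie to the left of the WT points in MEFs, and 9 do so in mESCs, where Pgk1 is at 0% in both.

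Pol II peaks past the end were also compared with those at the start. Peaks with the summit in the 5000 bp past the end and over 1000 bp from a coding start of another gene were found for 8 of the 9 genes with Pol II at a start, against 26.6% of such genes. They were found for 4 of 8 genes in KO mESCs (14.7%), and among MEFs for 8 of 10 (WT, 47.9%) and 9 of 10 (KO, 32.5%). The fold past the end was above that at the start in 3 of the 8 genes in WT mESCs, against 32.9% of genes with both peaks, a share near that background. The strong peak just past the end of Pkm, with a fold of 29.0 in WT mESCs and 14.2 in KO mESCs, lay within 1000 bp of a coding start of Gramd2 and was not counted. For Gapdh the fold past the end was 15.6 against 11.6, for Eno1 7.84 against 4.28 and for Ldha 4.80 against 4.32. In KO mESCs it was above in 1 of 4 genes (25.6% of genes with both), Gapdh, with 11.3 against 9.45. The end peak of Eno1 there had a fold of 3.41, and Ldha had none. In WT MEFs 1 of 8 genes was above (4.46%), Eno1, with 26.3 against 25.8, and in KO MEFs 0 of 9 (4.49%), where the Eno1 values were 7.99 and 23.2.

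The maps of Pgk1, Ldha and Gapdh show these patterns base by base. In WT mESCs the sole H2Bub1 peak of Pgk1 spanned 5947 to 7042 bp from its TSS. In KO mESCs the domain reached from the TSS to 7050 bp, near the same 3' border, and no Pol II peak accompanied it in either genotype. In MEFs the Pol II peaks of Pgk1 were wider in WT, with the main peak from position -1343 to 2833 against -369 to 1164 in KO, while H2Bub1 peaks were called in KO alone.

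**Figure D5:**
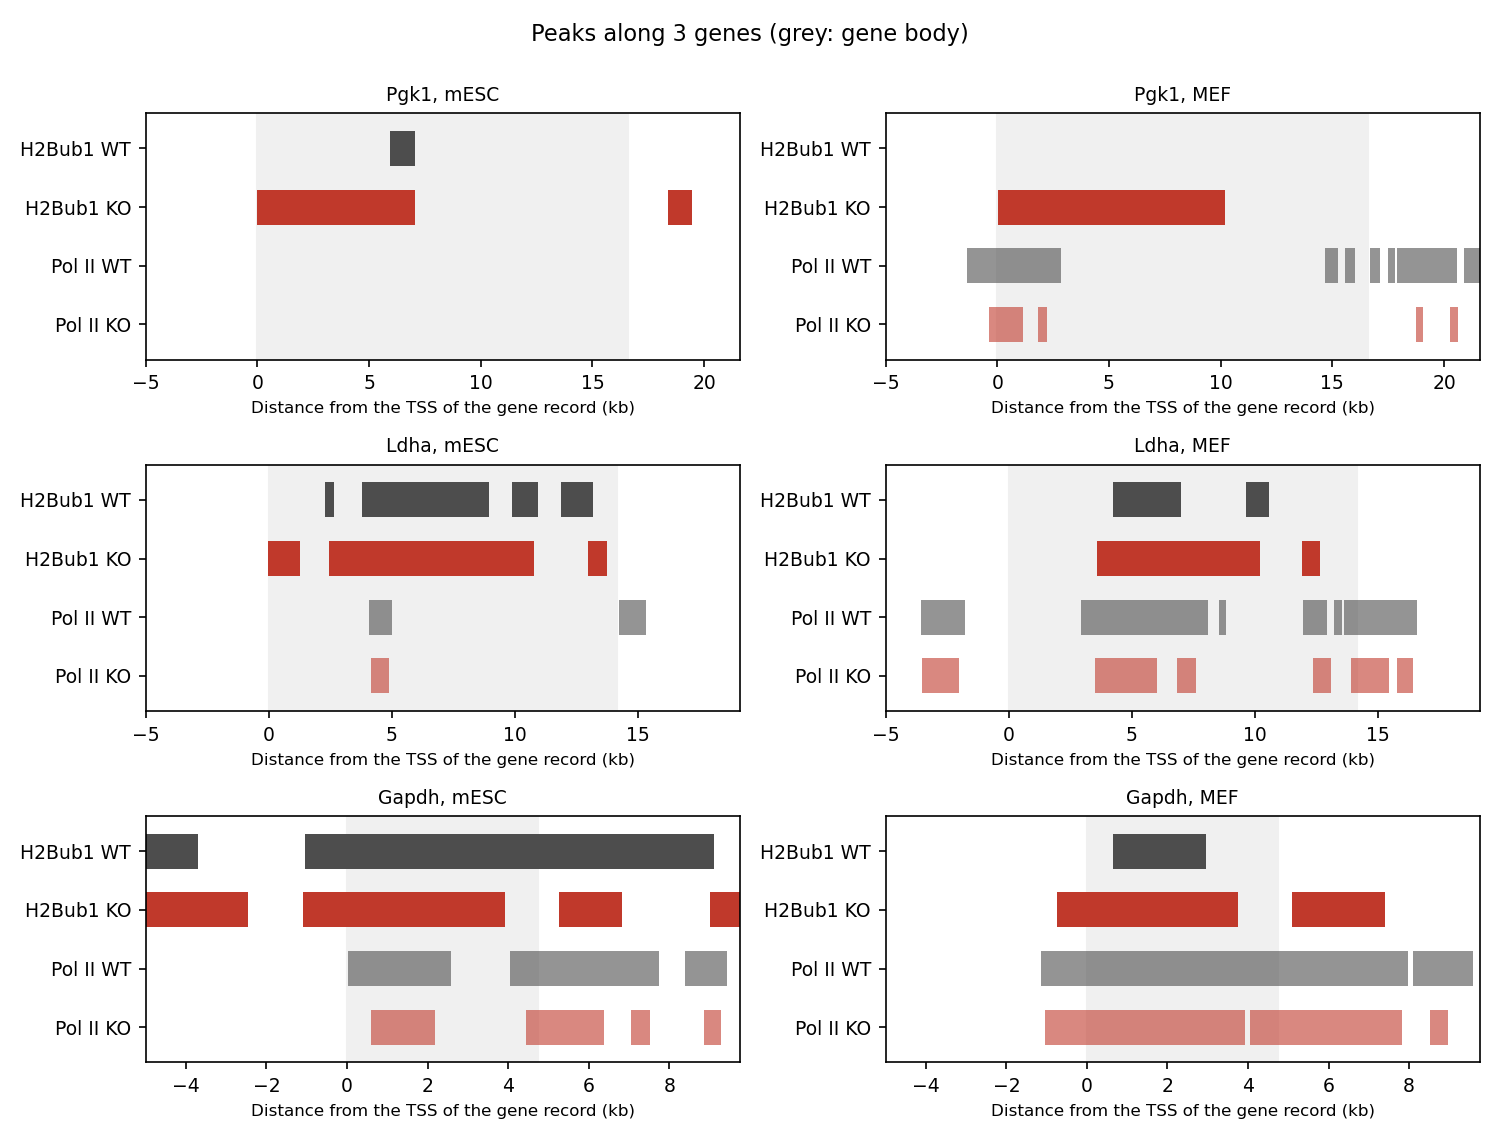
Positions of H2Bub1 and Pol II peaks along Pgk1, Ldha and Gapdh in mESCs (left) and MEFs (right), as distance from the TSS of the gene record in kb (x axis), with 5 kb on either side of the gene body (grey). Each row is 1 library, WT in grey and KO in red. Pgk1 carries an H2Bub1 domain at its 5' end in both KO libraries and no Pol II peak in mESCs, and a Pol II peak of Ldha lies about 4 kb inside its record in all 4 libraries.

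Pgk1 lies on a chromosome whose peaks differed between libraries. Of all mESC Pol II peaks, chromosome X held 0.855% (WT) and 2.76% (KO), and of the MEF ones 974 of 45869 (WT, 2.12%) and 677 of 32232 (KO). For H2Bub1 these shares were 0.569% (WT) and 2.20% (KO) in mESCs and 0.735% (WT) and 2.63% (KO) in MEFs. Of the 948 protein-coding genes on X, Pol II marked a coding start in 11.3% (WT) and 23.7% (KO) of mESC cases and in 40.7% and 36.5% of MEF cases. H2Bub1 peaks lay in the body of 17.7% (WT) and 43.1% (KO) of them in mESCs and 8.44% (WT) and 36.1% (KO) in MEFs. Over all genes these H2Bub1 shares were 53.6% (WT) and 60.8% (KO) in mESCs and 30.4% (WT) and 53.0% (KO) in MEFs. Low WT H2Bub1 shares at Pgk1 thus came with low WT H2Bub1 shares over X. Pol II in MEFs was not lower in WT over X or at Pgk1, whose body was covered over 23.4% (WT) and 9.59% (KO). The part of the chromosome in the Pgk1 values was not tested. Without Pgk1 the median H2Bub1 difference of the other 9 genes was 2.45 points in mESCs and 48.4 points in MEFs.

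The other genes of the pathway, 33 in all with isozymes of the same steps, carriers and control enzymes, were examined in the same way. Pol II at a coding start was found for 15 of them in each mESC library (36.4% of all genes in WT, 33.6% in KO) and for 25 in each MEF library (57.0% and 54.1%). In mESCs the H2Bub1 covered share was higher in KO for 22, equal for 5 and lower for 6, and in MEFs higher for 22, equal for 11 and lower for 0. Over all genes the share was higher in KO for 53.3% in mESCs and 52.6% in MEFs, and lower for 9.34% and 0.506%. The median share was 11.6% (WT) and 31.0% (KO) in mESCs, against 0% and 16.7% in MEFs. The 6 genes with a lower share in KO mESCs were Aldoc, Pgam1, Pgam2, Slc2a4, Slc16a1 and Slc16a3. Slc16a3, which encodes the MCT4 carrier for lactate export, had 66.6% (WT) and 31.0% (KO) in mESCs and 41.0% (WT) and 96.7% (KO) in MEFs. Pgam1, which encodes the phosphoglycerate mutase between the steps of Pgk1 and Eno1, had 73.3%, 59.8%, 63.7% and 81.3% in the same order, the highest WT MEF share of the 33.

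Pol II was called in 1 genotype only for 6 of the 33 genes in mESCs. Of the 15 genes with Pol II in WT mESCs 3 had none in KO, near the 22.3% of all such promoters. The genes called in WT mESCs alone were Pgk2 with a fold of 3.16, Ldhb with 3.59 and Pfkfb2 with 2.79, and in KO mESCs alone Gpi1 with 4.61, Eno4 with 4.34 and Pdk3 with 5.12. In WT MEFs alone Gapdhs had a fold of 3.83, where 7.79% of the promoters with Pol II in WT had none in KO, and in KO MEFs alone Hk3 had 3.42 and Aldoc 2.65. These 3 MEF folds lay below the library medians of 13.3 and 11.6.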

How the data were processed

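Libraries for H2Bub1 and Pol II from 8 samples, 1 per group, were analysed, and the other 8 samples of the series (inputs and a further Pol II form) were not analysed here. Per the submitters' processing notes, bcl2fastq 2.17.1.14, Bowtie 1.0.0 and MACS2 2.1.1.20160309 were used with the mm10 genome. The authors called broad peaks for H2Bub1 and narrow peaks for Pol II in each library. The control library, the thresholds and the number of reads are not given in the sources used here. The fold deposited for each peak is its pileup divided by the background of the peak caller, a linear ratio. The authors' p and q values are given as -log10, and per the file headers the Pol II lists also give the summit.

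From these lists, peaks were laid over GENCODE M21 genes on 21 chromosomes (mm10). A promoter was called where a Pol II peak overlapped the 1000 bp on either side of a start by at least 1 bp. The gene body runs from TSS to transcript end of the gene record, and a length-weighted fold is the mean over covered bases. With 1 library per group no test was run. The counting code was checked on simulated peaks with known answers. Ratios and shares were set beside all protein-coding genes and beside genes with Pol II at a coding start in both genotypes. All 10 genes are named, and of the other pathway genes those called in 1 genotype only, of which 1 is not reported here. Pgam1 and Slc16a3 were chosen after their values were seen. The genes, lists and markers were chosen with earlier results of these data known. The coding starts, the 5000 bp past the end, the 10 bins of the gene, the peaks past the end and the TSS and last base were chosen after values were seen. As alternatives, values were recomputed with other promoter windows, a body without its first 1000 bp or without bases in other genes, joined peaks, peaks of a minimum -log10 q of 3, WT and KO lists cut to equal length, and the list without Pgk1. Scripts ran in Python 3.11.15 (pandas 2.3.3, numpy 2.4.6), with figures from matplotlib 3.10.9. How reads with several matches were treated is not given here, and Gapdh, Eno1 and other genes of the list have processed copies in the genome.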

Additional observations from a re-analysis of the deposited data

Results flagged for a closer look

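Several genes differed between genotypes in opposite directions in the 2 cell types. With 1 library per group these differences between cell types were not tested. The share of the body in H2Bub1 peaks, KO minus WT, was -1.24 points in mESCs and 61.8 in MEFs for Tpi1, -17.3 and 30.3 for Gapdh, -10.6 and 65.2 for Eno1, and -11.9 and 39.2 for Pkm. The mESC value of Tpi1 became 73.6 points with a -log10 q of at least 3, the same direction as in MEFs, and under that minimum the mESC value of Eno1 was -35.5 and the MEF value of Pkm 18.4 points. The share in Pol II peaks was -1.03 points in mESCs and 7.25 in MEFs for Hk2, and 1.61 and -2.52 for Aldoa. The MEF value of Aldoa became 18.9 points with equal numbers of peaks and -14.6 over bases in no other annotated gene, where the mESC value was 0.0. The log2 ratio of KO to WT Pol II fold at a coding start was 0.052 in mESCs and -1.14 in MEFs for Pfkl, -0.046 and 0.48 for Aldoa, -0.29 and 0.19 for Gapdh, 0.15 and -0.040 for Pkm, and 0.19 and -0.73 for Ldha.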

How the results depend on the processing

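No paired analysis was possible because each group holds 1 library, and for the same reason no replicate could be left out. Of the values for the 10 genes as a list, 113 stayed close to the reported value under an alternative, 6 moved further and 3 changed sign (a count within 1.5 times, a median within its 95% order-statistic range). That range is wide with 10 genes, and medians inside it moved by over 1.5 times. The median mESC H2Bub1 difference of 5.45 points was 0.367 without the first 1000 bp of the body, 1.51 over bases in no other gene, 2.45 without Pgk1, 2.79 with equal numbers of peaks, 3.34 with joined peaks and 8.88 with a -log10 q of at least 3. With a -log10 q of at least 3, the median H2Bub1 share in WT MEFs was 0% and the median MEF difference 62.7 points. Without the first 1000 bp of the body, the median Pol II share in mESCs was 0.212% (WT) and 0% (KO), and 5 genes, in place of 8 of 10, had a lower share in KO mESCs. Among genes with no other protein-coding gene in the 5000 bp past the end, 4 had a lower share in KO in each cell type, fewer because only 4 such genes exist. The median log2 ratio of Pol II fold in mESCs, -0.05 at the TSS of the gene record, was 0.052 in a window from 100 bp upstream to 300 bp downstream and 0.00 (0.0033) at any annotated or any coding start, and in MEFs it was -0.06 at the gene record and -0.11 at those starts. Of the values for single genes, 292 stayed within 10 points or 1.5-fold, 11 moved further and 6 changed direction, and the cause was not tested. That tolerance is wide for small differences: in MEFs the Pol II body difference of Slc2a1 went from -12.4 to -4.90 with equal numbers of peaks and that of Hk2 from 7.25 to 2.89 over bases in no other gene. In mESCs the H2Bub1 difference became -15.9 for Pfkl and 73.6 for Tpi1 with a -log10 q of at least 3, and for Aldoa -3.34 without the first 1000 bp and -6.20 over bases in no other gene. Under that minimum of 3 the mESC difference of Eno1 was -35.5, and the MEF differences were 80.7 for Slc2a1, 100 for Aldoa and Tpi1, 89.2 for Eno1, 18.4 for Pkm and 46.6 for Ldha. The Pol II body difference became 18.9 for Aldoa in MEFs with equal numbers of peaks and -14.6 over bases in no other gene, and 1.59 for Tpi1 in mESCs without the first 1000 bp. Broad peaks near the threshold limit the WT MEF shares most, and unknown depth limits every difference between lists.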
